A study of Mus musculus with 24 samples.

Results

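The motor proteins of the cytoskeleton were followed here through 51 genes, which encode the kinesin motors, the kinesin light chains, the subunits of the dynein complexes and the unconventional myosins. The members were the gene symbols beginning with Kif and a digit, Kifc, Klc1 to Klc4, Dync, Dynl or Myo and a digit whose reads averaged 50 or more over all libraries. Of the 24079 genes in the table, 86 symbols matched and 51 of these passed the level, namely 21 kinesin motors, 14 myosins, 2 dynein heavy chains, 5 dynein intermediate or light intermediate chains, 6 dynein light chains and 3 kinesin light chains. Just under the level were Kif11 at 44.4, Kif22 at 46.5 and Kif19a at 47.0 reads, and just above it Dynlrb2 at 54.6, Kif26b at 58.7 and Myo7a at 74.8 reads. The average of 50 reads was kept in each of the 8 groups by 46 members, whereas Dynlrb2, Kif13b, Kif26b, Kif9 and Myo7a fell under it in at least 1 group.

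RNA came from 2 parts of the striatum, the nucleus accumbens (Acb) and its dorsal part (DS), of rpS6P-/- knockin mice, in which every phosphorylatable serine of ribosomal protein S6 is replaced by alanine in all cells, and of wild-type littermates on the same mixed C57Bl/6/Sv129/ICR background. Each lysate, pooled from several mice of both sexes whose ages are not given in the sources used here, was sampled whole and again after a sucrose gradient as heavy polysomal fractions, where mRNAs carry more than 4 ribosomes by the sample labels and at least that number by the study's methods. The 2 regions, 2 genotypes and 2 kinds of RNA gave 8 groups of 3 libraries, of 9280589 to 34703044 counted reads each. Levels are given as CPM, each count divided by its library's scaled total, after scaling the 24 libraries to each other, and "called" means an adjusted p under 0.05 by edgeR's quasi-likelihood test over all genes with at least 15 reads.

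Kinesins walk along microtubules, most of them outwards into axons and dendrites, and cytoplasmic dynein carries cargo back towards the cell body, while unconventional myosins move organelles along actin in spines and at the cell cortex. A dynein complex is built on a pair of very large heavy chains with intermediate, light intermediate and small light chains around them, and conventional kinesin joins Kif5 heavy chains to the kinesin light chains that bind cargo. The mRNAs of one machine therefore range from some of the longest to some of the shortest coding sequences of a neuron. The 37 long chains (kinesin motors, myosins and dynein heavy chains) had coding sequences of 2178 to 13935 bases with a median of 4161, and the 6 short dynein light chains had 270 to 351 bases with a median of 303.

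The coding sequences of the LC8 light chains are shown because Dynll2 is the most abundant of the short mRNAs and Dynll1 is its closest relative, so that the pair can be read side by side. Both are 270 bases long with the stop codon, lie on the minus strand in 2 coding exons and differ at 51 bases, in capitals, so that 81.1% of bases are identical. Of the 51 differing bases, 46 are at the third position of a codon, and 49 codons are touched. Dynll1 was taken at chr5:115298696-115300644 and Dynll2 at chr11:87981433-87984003 (GENCODE annotation of GRCm38/mm10).
Dynll1: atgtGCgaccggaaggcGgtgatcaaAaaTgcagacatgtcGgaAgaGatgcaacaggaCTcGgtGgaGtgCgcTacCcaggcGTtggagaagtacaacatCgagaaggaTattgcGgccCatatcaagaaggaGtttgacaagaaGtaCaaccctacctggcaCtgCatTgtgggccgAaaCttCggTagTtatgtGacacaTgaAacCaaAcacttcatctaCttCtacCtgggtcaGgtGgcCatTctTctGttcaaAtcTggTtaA
Dynll2: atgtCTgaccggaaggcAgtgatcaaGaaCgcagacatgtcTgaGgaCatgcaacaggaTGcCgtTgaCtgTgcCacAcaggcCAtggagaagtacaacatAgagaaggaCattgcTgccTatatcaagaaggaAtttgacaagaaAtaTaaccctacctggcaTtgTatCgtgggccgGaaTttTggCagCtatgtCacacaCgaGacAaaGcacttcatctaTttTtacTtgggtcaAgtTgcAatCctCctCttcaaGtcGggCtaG
The remaining light chains were Dynlrb1 with 315 and Dynlrb2 with 291 coding bases (roadblock family), Dynlt3 with 351 and Dynlt1a with 342 (Tctex family). The coding sequence of Dynlt1a is identical to those of Dynlt1c and Dynlt1f and differs from Dynlt1b at 1 base, so its count of 111 reads on average, against 1.13, 0 and 2.79 reads for Dynlt1b, Dynlt1c and Dynlt1f, is uncertain.

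Several checks bear on the libraries as a whole. The knockin alters codons of Rps6, so its level checks no label; Rps6 stood at 391, 444 and 488 CPM in Acb wild-type lysates and at 442, 441 and 397 CPM in those of rpS6P-/- mice. Markers of the medium spiny neurons of the striatum, 10 of 10 found, summed to between 3795 and 4261 CPM in the lysates of both regions. The 6 markers of cortical excitatory neurons summed to between 573 and 848 CPM in Acb and to between 2377 and 3262 CPM in DS lysates, and in heavy fractions to between 770 and 1210 and between 3521 and 7150 CPM. Of 10 markers of ependymal and other ciliated cells 9 were found, and they summed to between 19.6 and 44.2 CPM in Acb and between 6.88 and 18.2 CPM in DS lysates. Fewer cells of a type and less RNA per cell cannot be told apart in such tissue samples.

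Among the members, a light chain was the most abundant mRNA per length. In Acb lysates of wild-type mice, Dynll2 stood at 736 ± 32.8 CPM per kilobase of transcript (SD, n = 3), followed by Kif3a, Dynlrb1 and Kif5a at 274 ± 65.7, 253 ± 26.0 and 217 ± 36.2. The last 3 of these do not differ beyond their spread, and Kif3a, a subunit of the heterotrimeric kinesin-2, was divided by an annotated transcript that holds its coding sequence alone. Klc1 at 125 ± 17.7 and Dynll1 at 118 ± 9.3 CPM per kilobase formed a next step, again within each other's spread. The single heavy chain of cytoplasmic dynein, Dync1h1, stood at 16.5 ± 2.31 CPM per kilobase, and Kif26b was lowest of the 51.

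The heavy fractions were first compared with the whole lysates they came from. This asks whether each mRNA's level, relative to the other mRNAs of its library, differed between large polysomes and lysate. Each library is scaled to its own total, so the values do not give the share of an mRNA's molecules in polysomes. In both regions most long chains were lower in heavy polysomes than in whole lysate, and the dynein heavy chains were the lowest class. In Acb, 23 of the 37 long chains were called lower and 1 was called higher, where 15% of the 16687 genes tested were called lower and 16.6% higher. In DS, 25 of the 37 were called lower and 1 higher, against 17.6% of all genes called lower and 19.6% called higher. All genes tested include genes with fewer reads than the members. Of the 11979 genes averaging 50 or more reads, 2413 were called lower and 2694 higher in Acb, and 2828 and 3158 in DS. Kif13b, Kif26b, Kif9 and Myo7a, which fell under 50 reads in at least 1 group, are among the 37. Of the 33 long chains without them, 22 were called lower and 1 higher in each region. The median log2 difference of heavy polysomes from lysate was -0.67 for the long chains in Acb and -0.89 in DS, where the median of all genes tested was 0.06 and 0.03. Over the 33 it was -0.65 and -0.78. By class, the medians in Acb were -0.56 for the kinesin motors, -0.71 for the myosins and -1.75 for the dynein heavy chains, and in DS -0.66, -0.84 and -1.57.

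**Figure D1:**
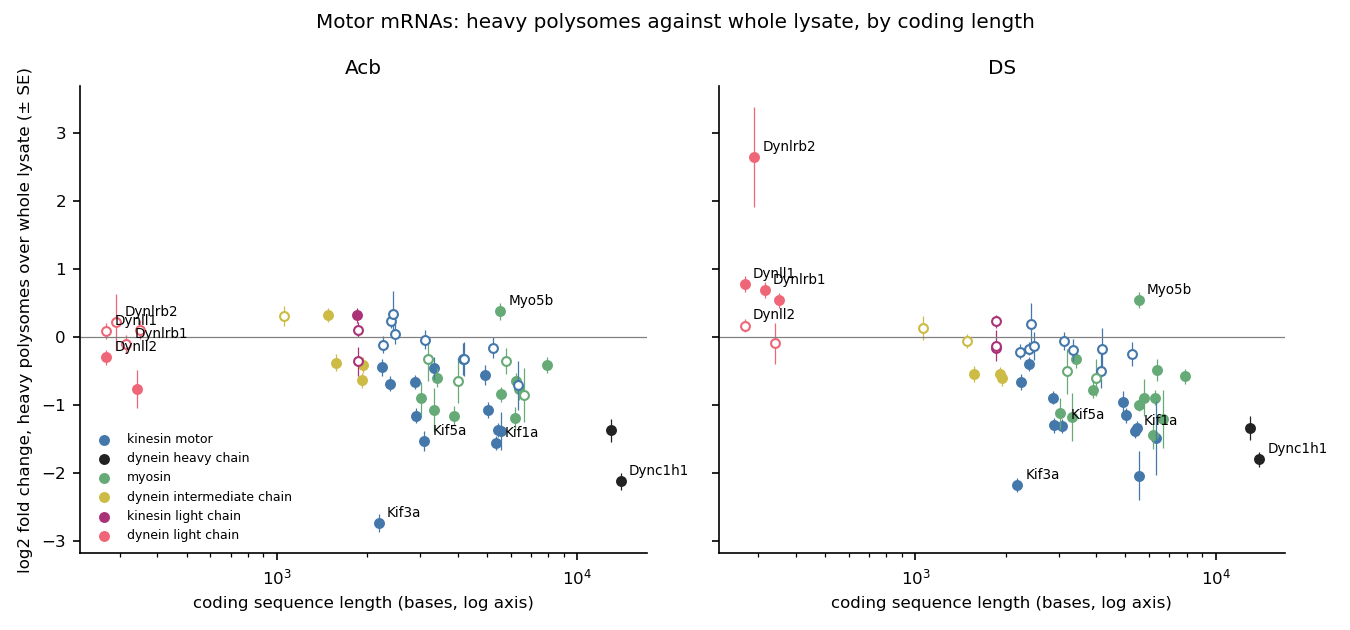
Log2 fold change of heavy polysomes over whole lysate (vertical axis, ± SE) against coding sequence length in bases (log axis) for the 51 motor genes in Acb (left) and DS (right), coloured by subunit class, with filled points for adjusted p under 0.05. The long chains lie mostly under 0 with Kif3a and Dync1h1 lowest or near it, and in DS the short dynein light chains Dynll1, Dynlrb1 and Dynlrb2 lie above 0.

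Dync1h1, the motor subunit of cytoplasmic dynein, showed the fall without overlap. Its Acb lysates stood at 267, 241 and 201 CPM in wild-type and 246, 280 and 242 CPM in rpS6P-/- mice. The Acb heavy fractions stood at 81.6, 55.3 and 56.5 CPM in wild-type and 60.7, 50.9 and 42.6 CPM in rpS6P-/- mice, all under the lowest lysate. The log2 fold change was -2.13 ± 0.12 (SE, adjusted p = 5.85e-17) in Acb and -1.80 ± 0.11 (adjusted p = 4.31e-19) in DS. Dync2h1, the heavy chain of the dynein that moves cargo inside cilia, fell by 1.38 and 1.34 on the log2 scale.

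Of the axonal kinesins, Kif1a, which carries synaptic vesicle precursors, stood at 652, 529 and 545 CPM in Acb wild-type lysates and at 210, 187 and 189 CPM in the matching heavy fractions. Its log2 fold change was -1.57 ± 0.10 (adjusted p = 3.21e-15) in Acb and -1.39 ± 0.09 (adjusted p = 1.7e-17) in DS. Kif5a, a neuronal heavy chain of conventional kinesin, stood at 1628, 1202 and 1275 CPM in the same lysates and at 730, 419 and 413 CPM in heavy fractions. All 3 heavy values were under all 3 lysate values, and the fold change was -1.53 ± 0.14 (adjusted p = 6.97e-11) in Acb and -1.31 ± 0.10 (adjusted p = 2.44e-15) in DS. Kif1b and Kif5b, close relatives of these motors, fell by 1.36 and 1.16 in Acb and by 1.34 and 1.30 in DS on the log2 scale. Among the actin motors, Myo10, a motor of filopodia, fell by 1.20 and 1.45, and Myo5a, which carries membranes into dendritic spines, by 0.85 in Acb.

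Kif3a showed the largest fall of the 51 members in Acb, and it carries a measurement limit. Its lysates ranged from 440 to 1100 CPM over the 12 libraries, with a median of 627, and its heavy fractions from 78.8 to 173 CPM with a median of 128. The fold change was -2.74 ± 0.13 (adjusted p = 6.62e-19) in Acb and -2.18 ± 0.10 (adjusted p = 1.75e-23) in DS. One Kif3a transcript of the annotation shares 27 identical bases with Bc1, a short neuronal RNA of 168 bases. Bc1 took 15.2 to 26.1% of lysate reads and 0.897 to 3.85% of heavy reads. For Kif3a alone, all protein-coding transcripts were searched. In the 1 transcript with the longest coding sequence searched for every member, Kif3a shared 9 bases and no member more than 18. Whether other transcripts of the other members share more was not tested. Over the 12 lysates, the CPM of Kif3a and the share of Bc1 had a Pearson r of 0.71 (permutation p = 0.00726, adjusted 0.0145 over 2 relations) and a Spearman rho of 0.65 (permutation p = 0.0244, adjusted 0.0448), and r was 0.54 without the 2 farthest libraries. Over the 12 heavy libraries r was 0.61 (permutation p = 0.0315), rho 0.60 (permutation p = 0.0448) and r without 2 libraries 0.39, and the part of Bc1 in the level of Kif3a was not tested.

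The other long chains spread over a wide range. Of the kinesin motors, Kif21a, which holds back microtubule growth, fell by 1.08 and 1.16 in Acb and DS, its relative Kif21b by 0.56 and 0.95, and Kif5c by 0.67 and 0.90, all called. Kif13b stood at -1.38 and -2.04, both called, on means of 29.7 to 161 reads per group. Kif17, a dendritic kinesin that carries NMDA receptor subunits, stood at -0.04 and -0.06, and Kif3c at 0.23 and -0.18, so that neither was called. Kif3b (-0.12 and -0.66) was called in DS alone and Kif2a, a microtubule depolymerase (-0.45 and -0.22), in Acb alone, and in the test used here neither contrast between regions passed, although for Kif3b the difference was called with DESeq2 (0.53, adjusted p = 0.0321), with no filter beyond 1 read (adjusted p = 0.0483) and with a block by lysate (adjusted p = 0.0222). Of the myosins, Myo6, which moves towards the minus end of actin, fell by 1.16 and 0.78, Myo1d by 0.91 and 1.13, Myo1e by 1.08 and 1.18, Myo18a by 0.65 and 0.89, and Myo9a by 0.42 and 0.58, all called. With the coding length trend removed, Myo9a turned to 0.40 (adjusted p = 0.00272) in Acb and 0.39 (adjusted p = 0.00311) in DS, and Myo18a to 0.0392 in Acb. The 13 long chains not called lower or higher in Acb included Kif13a, Kif16b, Kif27, Kif9, Kifc3, Myo16, Myo1c and Myo3b, with values from -0.65 to 0.33.

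Myo5b, a recycling endosome motor of the same family as Myo5a, went the other way. It stood at 65.0, 40.9 and 59.6 CPM in Acb wild-type lysates and at 80.9, 78.1 and 91.0 CPM in heavy fractions, so that every heavy value was higher. Over both genotypes, lysates and heavy fractions overlapped in Acb and did not in DS. The fold change was 0.38 ± 0.12 (adjusted p = 0.0161) in Acb and 0.54 ± 0.12 (adjusted p = 0.000178) in DS, and it was the 1 long chain called higher in each region.

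The short light chains were mostly higher in the heavy polysomes of DS and not in those of Acb. Dynlrb2 averaged under 50 reads in 5 of the 8 groups, so it passed the level only through the groups where it was high, and it is left out of the counts here. In DS, 3 of the other 5 were called higher in heavy polysomes and none lower, with a median log2 difference of 0.54, or 0.61 over all 6. In Acb none was called higher and Dynlt1a (-0.77 ± 0.28, adjusted p = 0.0311) and Dynll2 (-0.30 ± 0.11, adjusted p = 0.0327) were called lower, with a median of -0.11, or -0.01 over all 6. Both of these calls rested on single libraries, since leaving out 1 of the 12 ended that of Dynll2 in 6 fits and that of Dynlt1a in 5. Over all 6, Dynlrb2 included, the Acb median was 0.39 in wild-type libraries alone and -0.52 in rpS6P-/- libraries alone. That of the long chains was -0.69 and -0.67. Dynll1, an LC8 hub chain that dimerises many proteins, stood at 316, 310 and 317 CPM in DS wild-type lysates and at 516, 279 and 639 CPM in heavy fractions. The DS rpS6P-/- mice gave 286, 328 and 296 CPM in lysate and 565, 525 and 661 CPM in heavy fractions, so that 5 of the 6 heavy values were above every lysate and that of wild-type replicate 2 was under them all. The fold change in DS was 0.78 ± 0.11 (adjusted p = 1.16e-07). Dynlrb1 rose by 0.69 ± 0.11 (adjusted p = 1.34e-06) and Dynlt3 by 0.54 ± 0.11 (adjusted p = 6.64e-05). Dynlrb2 ranged from 0 to 0.962 CPM in the 6 DS lysates, on 0 to 16 reads each, and from 1.16 to 4.32 CPM in the heavy fractions.

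Of the 5 dynein intermediate and light intermediate chains, 3 were called lower in each region and Dync1li2, a light intermediate chain that binds cargo adaptors, was called higher in Acb (0.32 ± 0.10, adjusted p = 0.0127), and the class medians were -0.38 in Acb and -0.55 in DS. The 3 kinesin light chains had medians of 0.10 and -0.13, with Klc1 called higher in Acb (0.31 ± 0.11, adjusted p = 0.0301, lost in 6 of 12 fits without 1 library) and none called in DS. Dync1i1 and Dync1i2, the intermediate chains that hold dynactin, differed by -0.42 and -0.64 in Acb and by -0.60 and -0.55 in DS, and Dync1li1 by -0.38 and -0.55, all called. Dync2li1 stood at 0.30 and 0.13, Klc2 at 0.10 and -0.16 and Klc4 at -0.36 and -0.13, none of them called. With no overlap between any lysate and any heavy fraction of a region, 14 members were lower and 0 higher in Acb, where 19.4% of genes averaging 50 or more reads had no overlap, and 19 were lower and 2 higher in DS, where 26.5% had none. In DS, Dynlrb2 was 1 of the 2 and Kif13b was among the 19.

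Among genes at large, members included, those with long coding sequences also lay under those with short ones. Among genes averaging 50 or more reads, the 334 with a coding sequence up to 351 bases had a median fraction difference of -0.18 in Acb and 0.47 in DS, and the 3191 with 2178 bases or more had -0.37 and -0.53. All genes averaging 50 or more reads had 0.05 and 0.03. In Acb the short genes thus lay under that median as well, with 61 of the 334 called higher and 121 lower. Across the 51 members the fraction difference and coding length had a Spearman rho of -0.52 in Acb and -0.65 in DS, and across 11659 genes -0.49 and -0.67. These are correlations across genes of the same libraries, which are not independent replicates. With a trend on coding length removed from all genes, the median of the long chains minus that of the light chains, Dynlrb2 included, went from -0.66 to -0.04 in Acb and from -1.51 to -0.15 in DS.

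**Figure D2:**
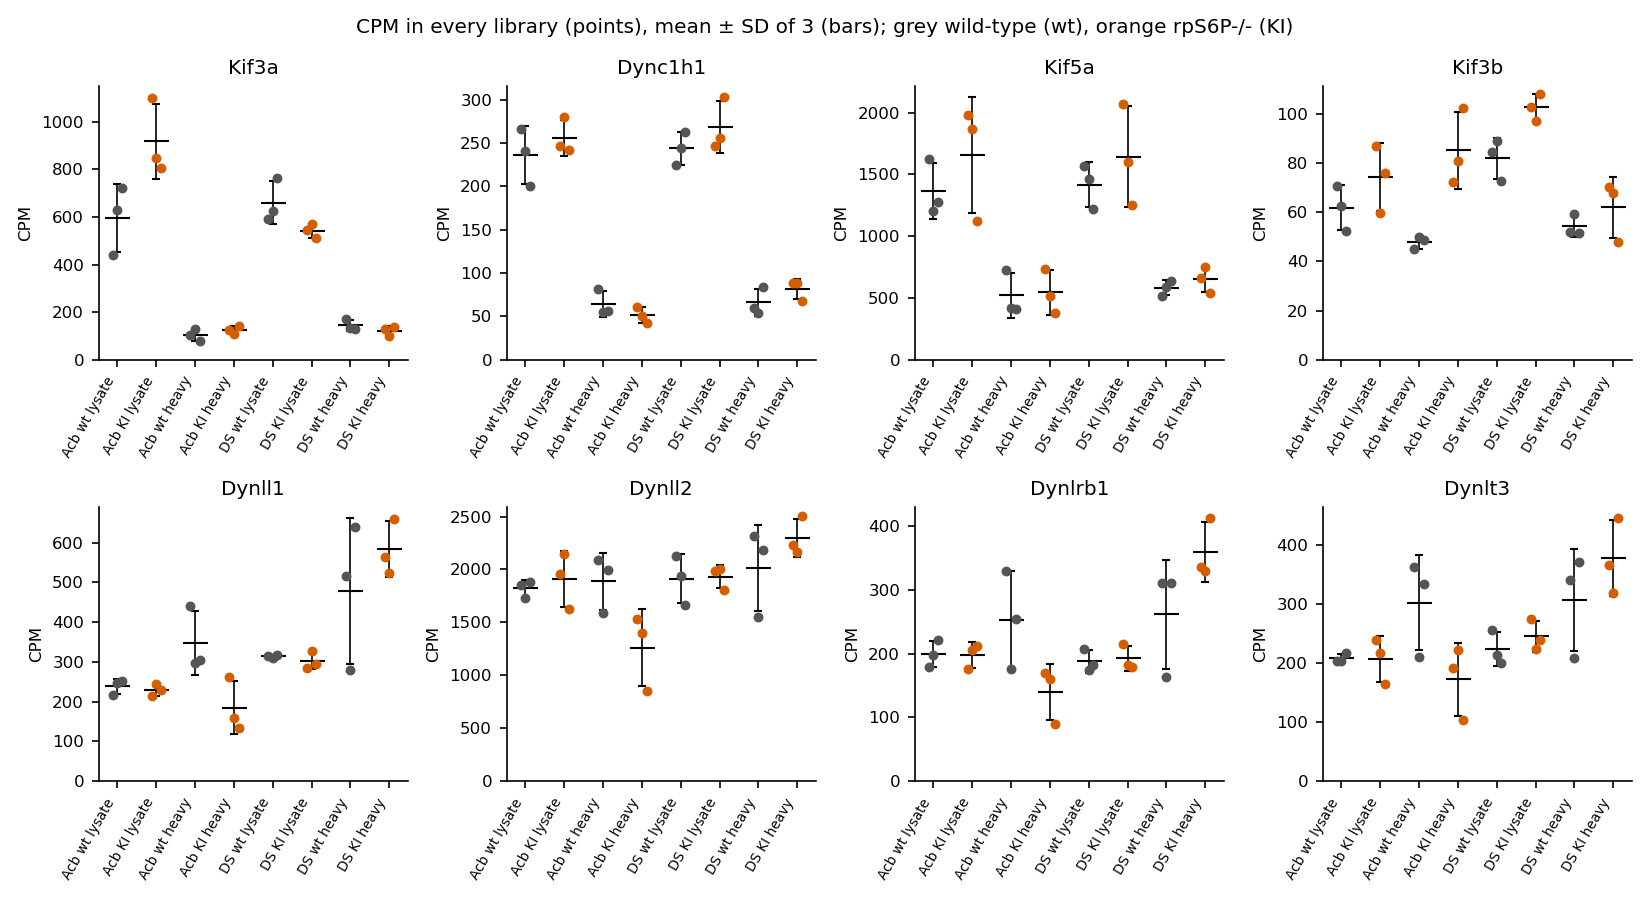
CPM (vertical axis from 0) of 8 motor genes in each of the 24 libraries, with points for libraries, grey for wild-type (wt) and orange for rpS6P-/- (KI), and bars for the mean ± SD of 3. Kif3a, Dync1h1 and Kif5a are lower in every group of heavy fractions than in lysates, while Dynll1, Dynll2, Dynlrb1 and Dynlt3 are highest in most DS heavy fractions and low in the Acb heavy fractions of rpS6P-/- mice.

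The regions were compared next, within each kind of RNA and over both genotypes. Some motors differed between Acb and DS in lysates and in both directions. In lysates 8 members were called higher in Acb and 11 lower, where 19.6% of the 16364 genes tested were called. In heavy fractions 6 were called higher and 7 lower, where 22.6% of 16880 genes were called. Among the 11979 genes averaging 50 or more reads, 1494 were called higher and 1513 lower in lysates, and 1590 and 1894 in heavy fractions. Of 25 members called in either kind of RNA, 7 were called in both, all with the same sign. The long chains were split evenly in lysates, with 6 called higher in Acb and 6 lower.

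Kif1c, a kinesin of fast vesicle transport, was higher in Acb by 0.83 ± 0.14 on the log2 scale in lysates (adjusted p = 4.88e-06) and was called in heavy fractions at 0.56. Its wild-type lysates stood at 53.0, 55.1 and 54.8 CPM in Acb and at 21, 33.5 and 37.7 CPM in DS, without overlap. With the rpS6P-/- lysates included, the regions overlapped. Myo16, a myosin found mainly in nervous tissue, was higher in Acb by 0.83 ± 0.21 in lysates (adjusted p = 0.00246) and by 1.37 ± 0.23 in heavy fractions (adjusted p = 0.000103). Its heavy fractions ranged from 10.8 to 22.8 CPM in Acb and from 2.34 to 8.67 CPM in DS, without overlap. Myo10 (0.62 in lysates, 0.87 in heavy fractions), the minus-end kinesin Kifc3 (0.61 and 0.78) and Dync2li1, a light intermediate chain of ciliary dynein (0.54 and 0.71), were also higher in Acb in both. Glial markers moved with these members in lysates, as 5 of 7 astrocyte, 6 of 7 microglia and 5 of 8 oligodendrocyte markers were called higher in Acb and 0 lower. The astrocyte markers summed to between 1842 and 2553 CPM in Acb and between 1356 and 1740 CPM in DS lysates, the microglia markers to between 159 and 203 and between 95.8 and 129 CPM, and the oligodendrocyte markers to between 3038 and 4167 and between 2744 and 3457 CPM. Their part in the differences was not tested.

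On the DS side, the kinesin light chain Klc2 stood at 96.2, 93.9 and 108 CPM in Acb wild-type lysates and at 161, 160 and 198 CPM in those of DS. The difference over both genotypes was -0.57 ± 0.09 (adjusted p = 7.07e-07). Kif3c, a neuronal kinesin-2 (-0.44 ± 0.08, adjusted p = 1.62e-05), Kif3b (-0.40), Kif5c (-0.38), Klc1 (-0.31) and Myo5a (-0.30) were lower in Acb lysates as well, and Myo3b, a class III myosin of actin protrusions, was lower in lysates (-0.87 ± 0.30, adjusted p = 0.0314, lost in 3 of 12 fits without 1 library) and in heavy fractions (-0.92 ± 0.28, adjusted p = 0.0189). The summed markers of cortical excitatory neurons given above, 6 of 6 found, were higher in every DS library than in any Acb library of the same kind of RNA, and their part in these differences was not tested.

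Dynlrb2, which is known from ciliated cells, entered the list only through its high groups, so its values are given as a description. Its 6 Acb lysates ranged from 1.86 to 4.45 CPM and its 6 DS lysates from 0 to 0.962 CPM. The summed ependymal markers, 9 of 10 found, moved with it, as did those of the choroid plexus, 6 of 6 found, at 28.8 to 53.3 CPM in Acb and 11.1 to 20.5 CPM in DS lysates, with the ciliary markers Spag17 and Hydin and the choroid markers Folr1, Kcnj13 and Aqp1 near 0, and their part was not tested. Of the 10 members known from cilia, 3 were called higher, Dynlrb2 among them, and 2 lower in Acb lysates.

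Several light chains differed between the regions in heavy fractions. The median difference of Acb from DS over the 6 was 0.04 in lysates and -0.53 in heavy fractions, where 4 were called lower in Acb. Without Dynlrb2, which passed the level only through its high groups, it was -0.01 and -0.58, again with 4 called lower in heavy fractions. Over all 6, Dynlrb2 included, the median in heavy fractions was -0.03 in wild-type mice alone and -0.98 in rpS6P-/- mice alone. This difference is given with its test as genotype by region below. The 4 called lower were Dynll1 (-1.06 ± 0.17, adjusted p = 5.03e-05), Dynlrb1 (-0.71 ± 0.17, adjusted p = 0.00323), Dynlt3 (-0.58 ± 0.17, adjusted p = 0.0139, lost in 3 of 12 fits without 1 library) and Dynll2 (-0.48 ± 0.13, adjusted p = 0.00965). The long chains had medians of -0.02 and 0.02. The 334 genes of up to 351 coding bases, members included, had a median of 0.11 in lysates and -0.60 in heavy fractions.

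**Figure D3:**
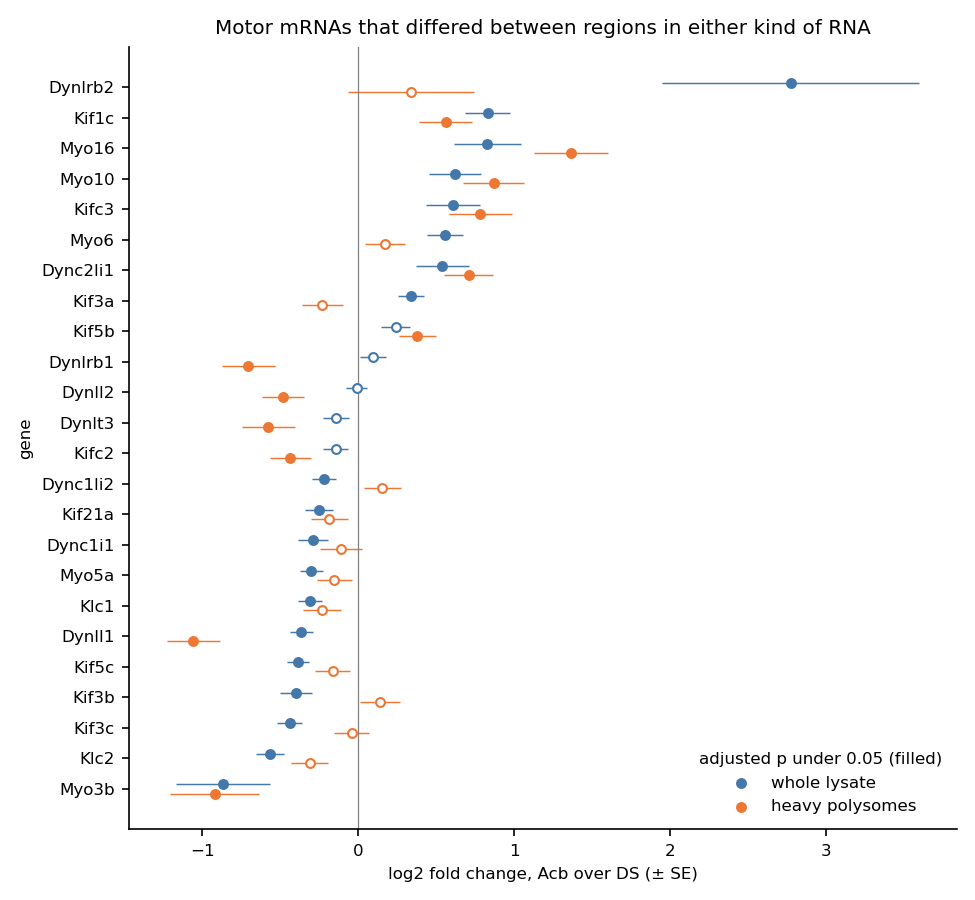
Log2 fold change of Acb over DS (horizontal axis, ± SE) for 24 of the 25 motor genes called in lysate (blue) or in heavy polysomes (orange), over both genotypes, with filled points for adjusted p under 0.05. Genes are ordered by the lysate value, from Myo3b at the bottom to Dynlrb2 at the top, and the heavy-polysome values of Dynll1, Dynlrb1, Dynll2 and Dynlt3 lie to the left of their lysate values.

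The difference between these differences, that is the fraction change in Acb minus that in DS, was tested as an interaction over all 24 libraries. All 6 light chains had a negative value, with a median of -0.65 with or without Dynlrb2, against 0.13 for the long chains. Dynlrb1 (-0.77 ± 0.19, adjusted p = 0.0217) and Dynll1 (-0.66 ± 0.19, adjusted p = 0.0468) were called, where 2.15% of genes were called. Among the 11979 genes averaging 50 or more reads, 98 were called higher and 269 lower. With each lysate and its own heavy fraction as a block, 6 members were called against 4.54% of genes, namely Dynll1, Dynll2, Dynlrb1, Dynlrb2 and Kif3a lower and Kif3b higher. The median of the long chains minus that of the light chains, Dynlrb2 included, was 1.45 in rpS6P-/- libraries alone and 0.10 in wild-type libraries alone. Dynll1 lost its call in 13 of the 24 fits that each left out 1 library. Among all genes of up to 351 coding bases the median was -0.64, with 105 of 334 called lower.

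Genotype was then tested in each region and kind of RNA, which asks how the loss of rpS6 phosphorylation changed the motor mRNAs. In the heavy fractions of Acb the light chains were all lower in rpS6P-/- mice and most long chains a little higher, but no member passed the adjusted test. The median log2 difference of rpS6P-/- from wild-type was -0.80 for the 6 light chains, lower in 6 of 6, or -0.78 without Dynlrb2. It was 0.12 for the 37 long chains. The 5 intermediate chains were higher in 5 of 5 with a median of 0.43, the 3 kinesin light chains in 3 of 3 with 0.49, and the dynein heavy chains had -0.19. By edgeR 0 members and 0% of 16227 genes were called. At an unadjusted p under 0.05 stood 13 members higher and 6 lower, 19 of 51, where 21.7% of all genes stood. Among the 11979 genes averaging 50 or more reads, 1578 stood higher and 1713 lower. DESeq2 called 9 members and 6.72% of genes, and a fit on all 24 libraries called 7 members and 4.68% of genes.

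**Figure D4:**
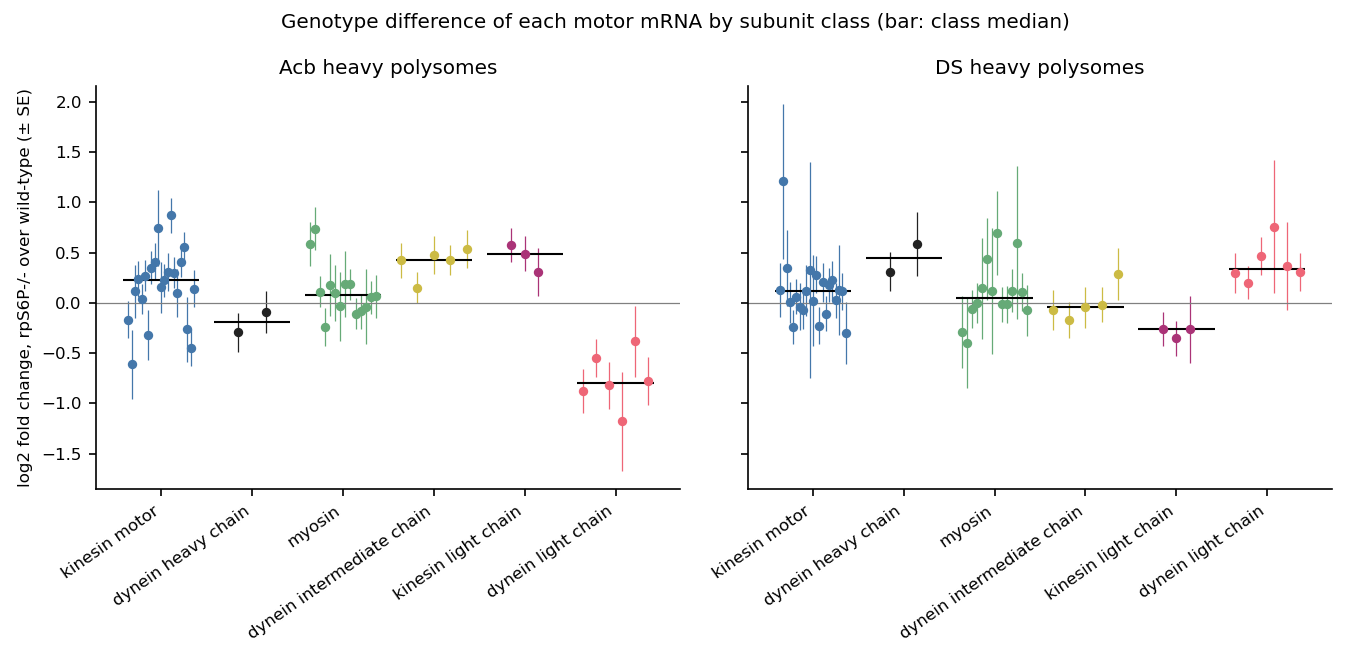
Log2 fold change of rpS6P-/- over wild-type mice (vertical axis, ± SE) in heavy polysomes of Acb (left) and DS (right) for each of the 51 motor genes by subunit class, with a black bar at the class median. The dynein light chains lie under 0 in Acb, with a median of -0.80 (-0.78 without Dynlrb2), and above 0 in DS, with a median of 0.34 (0.31 without Dynlrb2). No point passed an adjusted p of 0.05.

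Dynll1 stood at 441, 298 and 306 CPM in wild-type and at 261, 159 and 135 CPM in rpS6P-/- heavy fractions of Acb. The groups did not overlap, and the difference was -0.88 ± 0.22 (adjusted p = 0.1). Dynll2 stood at 2090, 1585 and 1992 CPM against 1534, 1402 and 851 CPM, again without overlap, at -0.55 ± 0.19 (adjusted p = 0.132). Dynlrb1 stood at 329, 175 and 254 CPM against 170, 160 and 89.3 CPM, at -0.82 ± 0.24 (adjusted p = 0.109). Dynlt3 overlapped, with 362, 210 and 335 CPM against 191, 223 and 104 CPM, at -0.78 ± 0.24 (adjusted p = 0.118). Library 3 of the rpS6P-/- mice was lowest for these 4 genes. In lysates of the same region Dynll1 stood at 217, 248 and 252 CPM in wild-type and at 213, 245 and 230 CPM in rpS6P-/- mice, and the light chains had a median difference of 0.02, or -0.01 without Dynlrb2.

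Kif3b, the partner of Kif3a in kinesin-2, had the smallest p of the members in Acb heavy fractions. It stood at 44.9, 49.9 and 48.8 CPM in wild-type and at 72.2, 80.9 and 102 CPM in rpS6P-/- mice, without overlap, at 0.87 ± 0.17 (adjusted p = 0.0983). Kif5c, a neuronal heavy chain of conventional kinesin, stood at 353, 382 and 338 CPM against 489, 468 and 580 CPM, at 0.56 ± 0.15 (adjusted p = 0.106). Its cargo-binding partner Klc1 stood at 294, 350 and 297 CPM against 446, 366 and 552 CPM, at 0.58 ± 0.17 (adjusted p = 0.113), and Myo16 at 10.8, 12.2 and 11.8 CPM against 14.7, 19.0 and 22.8 CPM, at 0.74 ± 0.21 (adjusted p = 0.107). In all, 12 members were higher and 3 lower without overlap of the 3 libraries per genotype, where 29.6% of genes averaging 50 or more reads had no overlap. Of the 334 genes of up to 351 coding bases, members included, 330 were lower, with a median of -0.70, and the 3191 long ones had a median of 0.18.

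In the heavy fractions of DS the light chains were not lower in rpS6P-/- mice. They were higher in rpS6P-/- mice in 6 of 6 with a median of 0.34, or 0.31 without Dynlrb2, and the long chains had 0.12, but by edgeR 0 members were called, against 0.044% of genes. One member, Dynlrb1, stood at an unadjusted p under 0.05 (0.47 ± 0.19, adjusted p = 0.736), where 6.42% of genes stood, and DESeq2 called 0. Its libraries were at 311, 163 and 310 CPM in wild-type and at 335, 329 and 413 CPM in rpS6P-/- mice, without overlap. Without overlap 3 members were higher and 2 lower, where 11.7% of genes had none. Of the 334 short genes 268 were higher, with a median of 0.33. Replicate 2 of the wild-type mice stood apart there, with long minus short chains, Dynlrb2 included, at -1.19 against -2.18 and -2.01 in the others. Leaving out 1 library moved the long minus short genotype difference, again with Dynlrb2, from -0.22 to between -0.43 and 0.0085, the latter without that replicate.

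In the lysates of Acb 0 members were called by edgeR and 0 by DESeq2, against 0.0065% of genes by edgeR, and 4 stood higher and 1 lower at an unadjusted p under 0.05, where 2.96% of genes stood. Kif3a led, at 440, 629 and 721 CPM in wild-type and 1100, 848 and 807 CPM in rpS6P-/- mice, or 0.62 ± 0.13 (adjusted p = 0.0816; with the replicate number as a block, adjusted p = 1.43e-06), with the limit given above. In DS 0 members were called by edgeR and 1 by DESeq2, against 0.122% of genes by edgeR and 95 of 15601 by DESeq2. By edgeR 4 members stood higher and 6 lower at an unadjusted p under 0.05, where 9.07% of genes stood. Among the 11977 genes averaging 50 or more reads tested in DS lysates, 581 stood higher and 696 lower. There Kif3a was on the other side, at 593, 625 and 763 CPM in wild-type and 546, 569 and 510 CPM in rpS6P-/- mice (-0.30 ± 0.09, adjusted p = 0.206). Klc1 (-0.29 ± 0.09, adjusted p = 0.242) and Klc2 (-0.34 ± 0.11, adjusted p = 0.249) stood lower in the same lysates. The 6 summed markers of cortical excitatory neurons were also lower there, at 2377 to 2523 CPM in rpS6P-/- against 2738 to 3262 CPM in wild-type mice, with 1 of 6 called lower. Most of that sum was Nrgn, at a mean of 1589 CPM in rpS6P-/- against 2186 CPM in wild-type mice. The median log2 difference of the 6 markers was -0.07, with 2 of 6 higher, and their part was not tested.

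Whether the genotype difference depended on the kind of RNA or on the region was tested as an interaction. For genotype by fraction in Acb, edgeR called 0 members and 0% of genes and DESeq2 called 0 members, with 6 higher and 6 lower at an unadjusted p under 0.05, where 11.9% of genes stood. Among the 11979 genes averaging 50 or more reads, 816 stood higher and 888 lower. The light chains were negative in 6 of 6 with a median of -0.82, or -0.81 without Dynlrb2, and the long chains had 0.10, with Dynll1 at -0.82 ± 0.25 (adjusted p = 0.244). With each lysate and its heavy fraction as a block, 0.635% of genes were called and 1 member, Dynll1, at -0.85 (adjusted p = 0.0288). In DS edgeR and DESeq2 called 0 members, edgeR 0% of genes, and the light chains were positive in 6 of 6 with a median of 0.38, or 0.34 without Dynlrb2. There 1 member stood higher and 1 lower at an unadjusted p under 0.05, Dynlt1a (1.33 ± 0.61) and Kif1a (-0.38 ± 0.19), where 4.9% of genes stood.

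For genotype by region in heavy fractions, the light chains were negative in 6 of 6 with a median of -1.12, or -1.07 without Dynlrb2, and the long chains had 0.05. By edgeR 0 members were called, against 0.00592% of genes, with 7 higher and 6 lower at an unadjusted p under 0.05, where 13.8% stood. Among the 11979 genes averaging 50 or more reads, 971 stood higher and 1071 lower. DESeq2 called 3 members, against 236 of 16880 genes, and the fit on all 24 libraries called 6, against 2.49% of genes. The lowest adjusted p of the members was that of Dynlrb1 (-1.27 ± 0.34, adjusted p = 0.108), followed by Klc2 (0.86 ± 0.24, adjusted p = 0.12) and Klc1 (0.85 ± 0.24, adjusted p = 0.129). In wild-type heavy fractions Klc2 stood at 87.7, 113 and 86.5 CPM in Acb and 162, 173 and 137 CPM in DS, and in rpS6P-/- heavy fractions at 140, 108 and 144 CPM against 126, 114 and 127 CPM, so that the regions overlapped in rpS6P-/- mice and did not in wild-type mice.

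The balance of long and short chains within a library sums these values up. The mean log2 CPM of the long chains minus that of the light chains, Dynlrb2 included, was -1.77 ± 0.53 (SD, n = 3) in Acb wild-type heavy fractions and -0.93 ± 0.45 in those of rpS6P-/- mice. The libraries stood at -2.21, -1.18 and -1.92 against -1.17, -1.20 and -0.41, and wild-type replicate 2 reached into the range of the rpS6P-/- group. In DS the heavy fractions gave -1.79 ± 0.53 in wild-type and -2.15 ± 0.43 in rpS6P-/- mice, with overlap. Lysates varied less, from -0.82 ± 0.24 in Acb wild-type to -0.21 ± 0.24 in DS rpS6P-/- mice. Dynlrb2 averaged under 50 reads in 5 of the 8 groups but counts fully in the mean of the light chains. Its own log2 difference of Acb from DS lysates was 2.78, while the median of the light chains without it was -0.01. The balance was not computed without Dynlrb2, so the differences between lysates are not read further. Other genes of the same coding lengths gave -1.05 ± 0.32 and -0.16 ± 0.53 in Acb heavy fractions and -1.16 ± 0.49 and -1.44 ± 0.31 in DS.

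**Figure D5:**
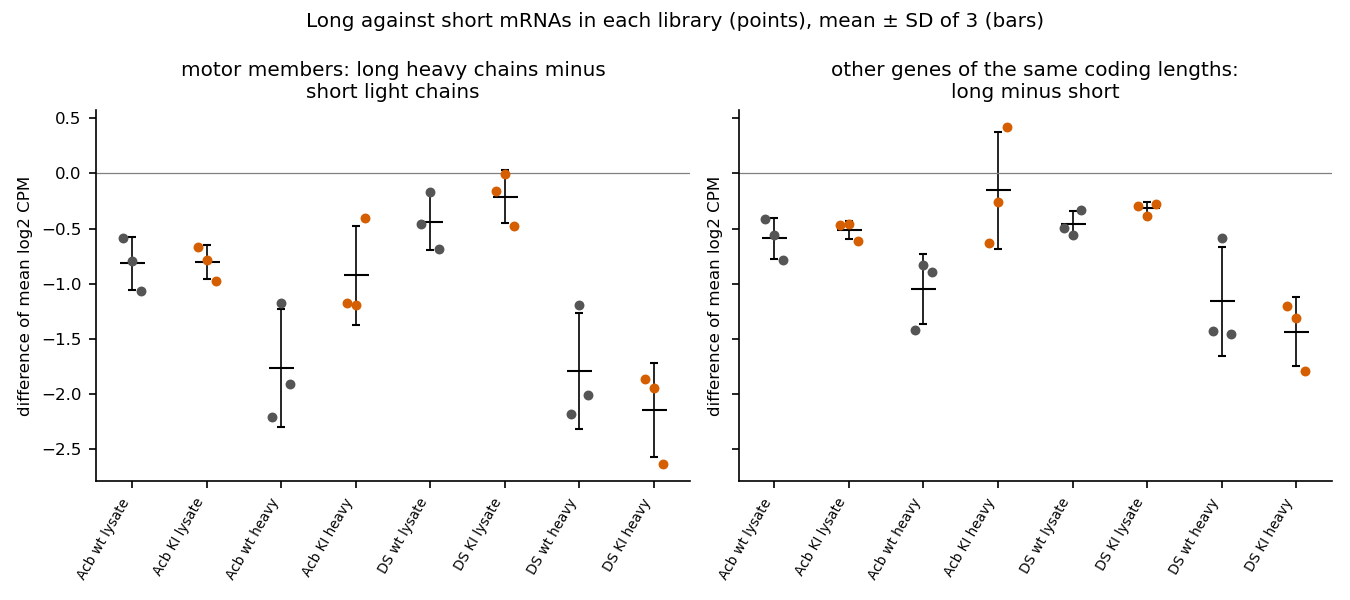
Mean log2 CPM of long minus short mRNAs (vertical axis) in each library, for the 37 long and 6 short motor genes, Dynlrb2 included (left), and for other genes of the same coding lengths (right), with points for libraries, grey wild-type (wt), orange rpS6P-/- (KI) and bars for the mean ± SD of 3. Heavy fractions lie under lysates in most groups, and the Acb heavy fractions of rpS6P-/- mice lie higher than the other heavy groups in both panels.

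The partners of the motors were counted from 4 lists of related genes, beside the 16.6% of all genes called higher and 15% lower in Acb heavy polysomes and the 19.6% and 17.6% in DS. Of 22 dynactin and dynein regulators tested, 11 were called higher in heavy polysomes and 2 lower in Acb, and 9 and 6 in DS. The long Dctn1, which links dynactin to dynein, fell by 0.82 in Acb and by 1.21 in DS on the log2 scale, while Dctn3 and Dctn6, small subunits of the complex, rose by 1.06 and 1.01 in DS. Of 20 kinesin adaptors and cargo receptors, 3 were called higher and 10 lower in Acb, and 4 and 10 in DS, with Mapk8ip3, a scaffold between kinesin and dynein, falling by 1.14 and 1.75. Among the conventional myosins, the heavy chain Myh9 fell by 1.33 and 1.18 and the light chain Myl6 rose by 0.88 and 1.37, and of the 22 of this list tested in Acb 7 were called higher and 4 lower, against 8 and 5 of 23 in DS. Of 30 tubulins and microtubule-associated proteins, 8 were called higher and 17 lower in Acb, and 7 and 14 in DS, with the long Map1b falling by 1.71 and 1.61 and the short Stmn1 rising by 0.94 and 1.21. Map1lc3a fell by 0.61 in Acb and rose by 0.36 in DS, and the tubulin Tubb2a fell by 0.90 and 1.10. Whether these lists follow coding length was not tested. In Acb against DS lysates, where 19.6% of all genes were called, 1 dynactin gene was called higher and 10 lower, of the tubulins and their associated proteins 2 and 15, of the conventional myosins 0 and 9, and of the kinesin adaptors 2 and 4. In the 4 genotype comparisons edgeR called 0 genes of these lists, with, at an unadjusted p under 0.05 in Acb heavy fractions, where 21.7% of all genes stood, 7 dynactin genes higher and 3 lower, 6 kinesin adaptors higher and 0 lower, 2 conventional myosins higher and 6 lower, and 5 tubulins and associated proteins higher and 3 lower. Of 10 ciliary motors, 0 were called higher and 2 lower in Acb heavy polysomes, and 1 and 4 in DS. Dynlrb2 was the 1 higher in DS and Myo7a was among the 4 lower, and both fell under 50 reads in some groups. No mitotic kinesin reached the level for membership.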

How the data were processed

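RNA of whole lysates and of heavy polysomal fractions was sequenced from poly-A selected, stranded libraries (50-base single-end reads). The deposited values are raw read counts per gene, which the authors counted with HTSeq (0.6.1p1) from alignments by TopHat (2.0.13) running Bowtie (2.2.3), on mm10 with UCSC genes. Some libraries were run more than once because of bacterial reads.

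From these counts, genes with at least 15 summed reads were scaled by TMM and tested with edgeR 4.0.16 (quasi-likelihood F-test, Benjamini-Hochberg adjustment over all genes tested, 0.05) in R 4.3.3, on the groups of each comparison, and interactions in one model. Alternatives used DESeq2 1.42.0, other filters, a loess trend (span 0.5) on length, replicate blocks and single libraries left out. The main edgeR fits were tested on simulated counts for some of the comparisons, and the other steps were not. By the study's methods, lysate and gradient shared their samples, and each heavy replicate combined fractions of separate samples. Whether its lysate library combined the same samples is not stated. The main fraction and interaction tests did not pair lysate and heavy libraries. The block by lysate paired those of the same group and number, whose deviations correlated only by -0.0376 to 0.0743 (0 of 12 over 0.1). Lengths and sequences came from GENCODE on GRCm38.

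Members and lists were chosen with earlier results of these data known. Named genes were all dynein subunits and kinesin light chains, a list of neuronal motors, and per comparison the 3 members with the largest called fold change in each direction or, with none called, the 3 lowest p. One member is counted but not reported here by name. A few further members were named after their values were seen. The replicates are separate pools in the study's methods, and p-values measure the spread between 3 libraries a group.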

Additional observations from a re-analysis of the deposited data

Results flagged for a closer look

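The difference in fraction change between regions (Acb minus DS) was past the threshold for Dynlrb1, at -0.77 ± 0.19 (adjusted p = 0.0217), and for Dynll1, at -0.66 ± 0.19 (adjusted p = 0.0468), both by edgeR's interaction test over 24 libraries. Dynlrb1 lost the call in 1 of 24 fits that each left out 1 library, and Dynll1 in 13 of 24. Neither was called in wild-type libraries alone or with the coding length trend removed, Dynlrb1 was not called with the transcript length trend removed, and Dynll1 was not with filterByExpr. The 3 Acb heavy fractions of rpS6P-/- mice stood at 261, 159 and 135 CPM for Dynll1, and the DS ones at 565, 525 and 661 CPM. The cause was not tested.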

How the results depend on the processing

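Fraction calls were kept within 1.5 times in Acb and DS under the other tools and filters. The 0 genotype calls by edgeR in Acb heavy fractions became 9 with DESeq2 (1090 of 16227 genes) and 7 with all 24 libraries (813 of 17365). They became 5 with no filter beyond 1 read (549 of 17896) and 2 with a replicate block by number (98 of 16227), Dynll1 at -0.91 and Kif3b at 0.85. Genotype by region in heavy fractions gave 3, 6, 4 and 2 members under the same settings, where 236 of 16880, 433 of 17365, 353 of 18328 and 117 of 16880 genes were called. Genotype by fraction in Acb gave 2 with no filter (107 of 18207 genes) and 1 with the replicate block by lysate (106 of 16687). Fraction by region, 2 members, gave 6 with DESeq2 (697 of 17365 genes), 6 with no filter (746 of 18716) and 6 with the replicate block by lysate (788 of 17365). It gave 1 with the coding length trend removed (151 of 17365), 1 with filterByExpr (309 of 15592) and 9 in rpS6P-/- libraries alone (977 of 16639). In wild-type libraries alone it gave 0 members, but 0 of 16684 genes were called there. Genotype in Acb lysate gave 1 with no filter (2 of 17066 genes), 1 with the replicate block by number (5 of 15393, Kif3a at 0.63) and 1 with the transcript length trend removed (2 of 15393). In DS lysate DESeq2 gave 1 (95 of 15601). The region counts were 11 and 8 in lysates of rpS6P-/- and wild-type mice alone, where 1693 of 15575 and 1975 of 15557 genes were called. They were 3 in wild-type heavy fractions alone, where 1316 of 16143 genes were called. Same-numbered libraries of the genotypes correlated by -0.294 to 0.319 and those of the regions by -0.256 to 0.217, so the numbers were not taken to pair them. One of the 2 members called under the block in genotype by region was Dynlrb1 (-1.27).

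The long minus short median, here with Dynlrb2 included, moved when the coding length trend was removed, to -0.0432 and -0.15 for the fraction in Acb and DS, -0.0341 for the region in heavy fractions, 0.0792 for genotype in Acb heavy fractions, 0.15 for genotype by fraction in Acb, 0.31 for genotype by region and 0.15 for fraction by region. With the transcript length trend removed it was -0.16 and -0.63 for the fraction in Acb and DS and 0.53 for genotype in Acb heavy fractions. In rpS6P-/- libraries alone it was -0.15 for the fraction in Acb, 1.01 for the region in heavy fractions and 1.45 for fraction by region, and in wild-type libraries alone -1.08, 0.050 and 0.10. With the kinesin light chains counted as short it was -1.12 for the fraction in DS and 0.78 for genotype by region. The direction turned with the coding length trend removed for Myo18a (0.0392), Kif21b (0.00047) and Myo9a (0.40) in Acb fractions, Myo9a (0.39), Dynlt3 (-0.0822) and Myo9b (0.36) in DS fractions, and Dynll2 (0.0354) between regions in heavy fractions, with the transcript trend removed for Myo9a (0.14 and 0.19), and in wild-type libraries alone for Klc1 in the Acb fraction (-0.0461) and Kif3a between lysates (-0.12).

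Leaving out 1 library at a time gave 27 to 31 members called for the fraction in Acb, 30 to 35 in DS, 17 to 19 and 10 to 15 for the regions in lysates and heavy fractions, and 0 to 8 for fraction by region, with 8 without DS wild-type heavy replicate 2, 5 without Acb rpS6P-/- heavy replicate 1 and 0 without DS rpS6P-/- heavy replicate 3. It gave 0 to 1 for genotype in Acb lysates (Kif3a), in DS lysates (Kif5b) and by fraction in Acb (Dynll1), and 0 to 2 for genotype by region. Of 1344 values of called or named members under single omissions, 80 lost their call, among them Dync1li2 (8 of 12) and Kif21a (6 of 12) between lysates. The causes were not tested.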
